A study of Mus musculus with 2 samples.

Results

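The interferon-stimulated genes examined here were 48 mouse genes. They were chosen by name and not by a threshold on their values, but with earlier results of these data known. They comprised 35 genes induced mainly by type I interferon, 12 GTPases induced mainly by interferon gamma, and *Irf1*, which was kept apart from both lists. Of these, 47 reached an RPKM of 0.01 in 1 library or both, out of 14732 gene symbols in all, and *Ifi44* was listed in neither. RPKM here means reads normalised to the length of the transcript and the depth of the library. The RNA came from CD8+ T cells of OT-I transgenic C57BL/6 mice aged 6 to 8 weeks, purified from spleen and lymph nodes. The T cell receptor of these mice recognizes the ovalbumin peptide SIINFEKL, with which all cells were activated for 24 h at 2.5 ng/mL together with IL-2 at 10 U/mL. The cells then received the retroviral vector RVKM, carrying *Eomes* followed by an IRES-hCD2 cassette (Eomes-overexpressing cells), or the same vector without *Eomes* (control cells). After 48 h the hCD2+ cells were sorted, and 40000 cells per well were restimulated for 3 days with peptide and IL-2 at those doses. Each condition gave 1 bulk library, so there was no test between conditions and no p-value is given. *Eomes* was driven by a viral promoter in cells from culture, and lower values in bulk RNA cannot be told apart from fewer cells that express a gene.

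Interferons are secreted proteins that prepare cells for infection. Type I interferons bind the receptor of IFNAR1 and IFNAR2, and the kinases JAK1 and TYK2 then activate a complex that holds STAT2 and IRF9 (ISGF3) and binds interferon-stimulated response elements (ISREs). Interferon gamma, a main product of activated CD8+ T cells, binds IFNGR1 and IFNGR2, and its signal acts through gamma-activated sites (GAS), also at *Irf1*, whose product binds ISRE-like sites in turn. The induced genes overlap broadly, so a gene belongs mainly, not strictly, to 1 of the pathways.

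*Eomes* was at 2.47 in control and 129.64 in Eomes-overexpressing cells (RPKM), 52.5-fold higher. Genes were called expressed when either library reached an RPKM of 1 (9925 genes), and their log2 ratios (Eomes-overexpressing over control throughout) had a median of -0.0037, with 50.5% below 0. A gene was called lower or higher when it differed by more than 1.5-fold, 0.58 on the log2 scale, and 5.19% of expressed genes were lower and 2.46% higher. The depth, read from the steps between low values, was about 20725389 reads for control and 19880716 reads for Eomes-overexpressing cells. The 8 T cell markers examined were all listed and summed to an RPKM of 2716 in control cells against 2252 with overexpressed *Eomes*. All 8 had log2 ratios below 0, with a median of -0.34, where the interferon-stimulated genes below had a median of -0.23. Of the 8, 2 were lower, *Cd8a* at 181.81 and 99.10 and *Cd2* at 265.32 and 170.85. Of the B cell markers, *Cd79b* was at 2.79 and 1.56, and *Ms4a1*, *Pax5* and *Blnk* were not listed. Markers of myeloid and dendritic cells summed to 6.14 and 7.21 (*Lyz2*, *Csf1r* and *Adgre1* not listed). Among them *Cd68* was higher, at 2.68 and 4.59, and *Xcr1* lower, at 1.79 and 1.11. The 4 NK cell markers summed to 9.25 and 27.2, with *Klrb1c* and *Fcer1g* higher and *Ncr1* not listed, and their part in the values below was not tested.

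Most interferon-stimulated genes were within 1.5-fold, and those outside it were all lower in Eomes-overexpressing cells. Of the 47 listed genes, 36 were expressed. Among these, 8 were lower (22.2%, against 5.19% of all expressed genes), 0 were higher (against 2.46%) and 28 lay within 1.5-fold. The genes were chosen with earlier results of these data known, so these shares are a description only. The 8 lower genes were *Ifi27l2a*, *Gbp2*, *Isg15*, *Isg20*, *Ifi27*, *Lgals3bp*, *Zbp1* and *Irf1*. The log2 ratio was below 0 for 28 of the 36 genes (77.8%) and above 0 for 8, and the median was -0.23 (interquartile range -0.54 to -0.02), where the interquartile range of all expressed genes was -0.15 to 0.16. Each interval below is the exact binomial 95% interval (Clopper-Pearson) of a log2 ratio from approximate reads. It holds counting error alone, and so compares 2 libraries rather than 2 conditions. The interval lay below 0 for 20 genes, above 0 for 4 and spanned 0 for 12. It lay wholly past the 1.5-fold line for 6 of the 8 lower genes, all except *Isg15* and *Irf1*. The same counts were not made over all expressed genes, so these counts are not a result about the members.

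**Figure D1:**
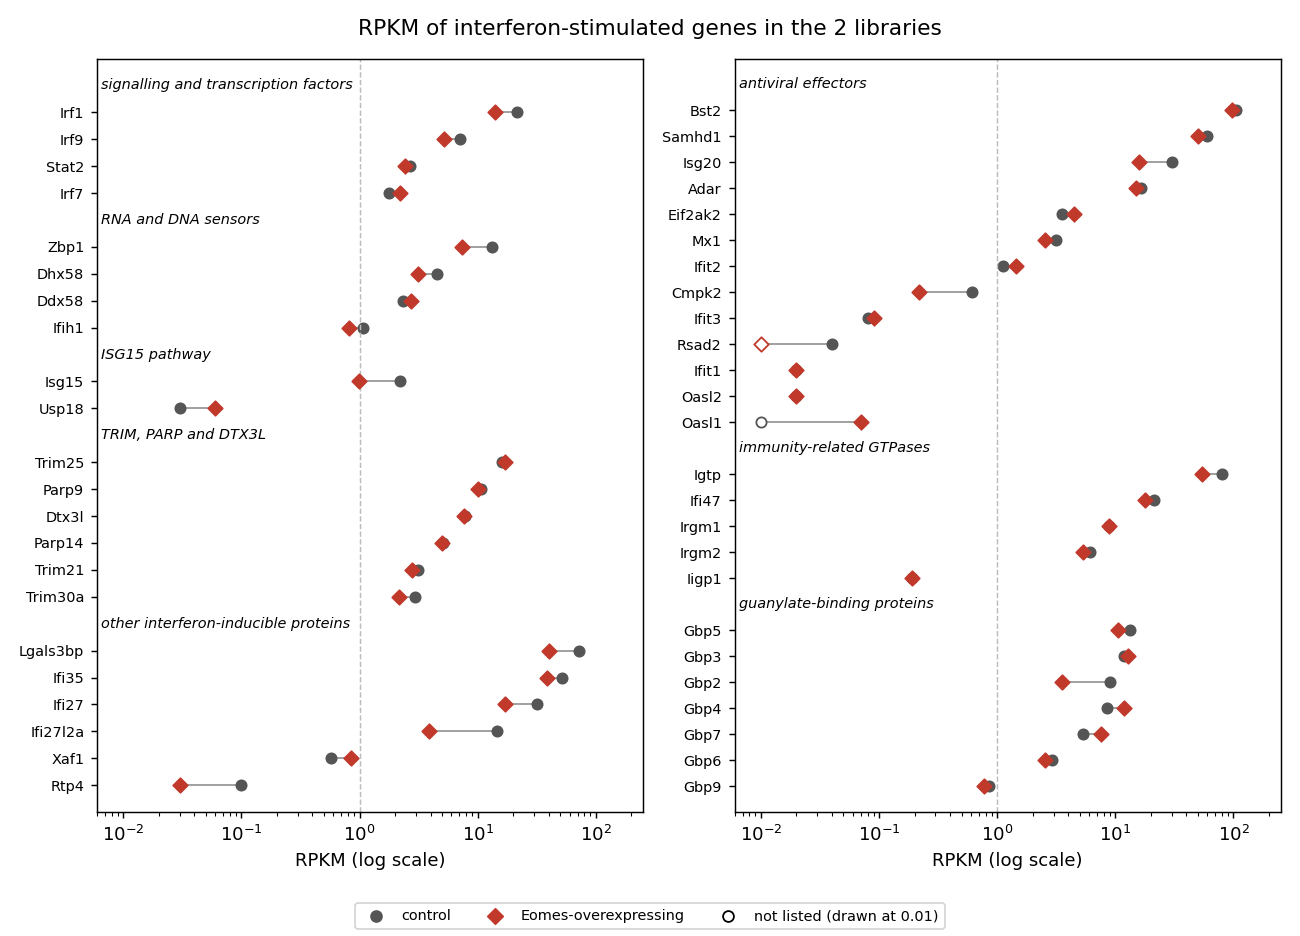
RPKM on a log axis of the 47 listed interferon-stimulated genes, grouped by role, in the control library (circles) and the Eomes-overexpressing library (diamonds), with open symbols at 0.01 where a gene was not listed and a dashed line at an RPKM of 1. The levels run from 0.02 (*Ifit1*, *Oasl2*) to 105.78 (*Bst2* in control), and the longest leftward shifts among expressed genes are those of *Ifi27l2a* and *Gbp2*.

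**Figure D2:**
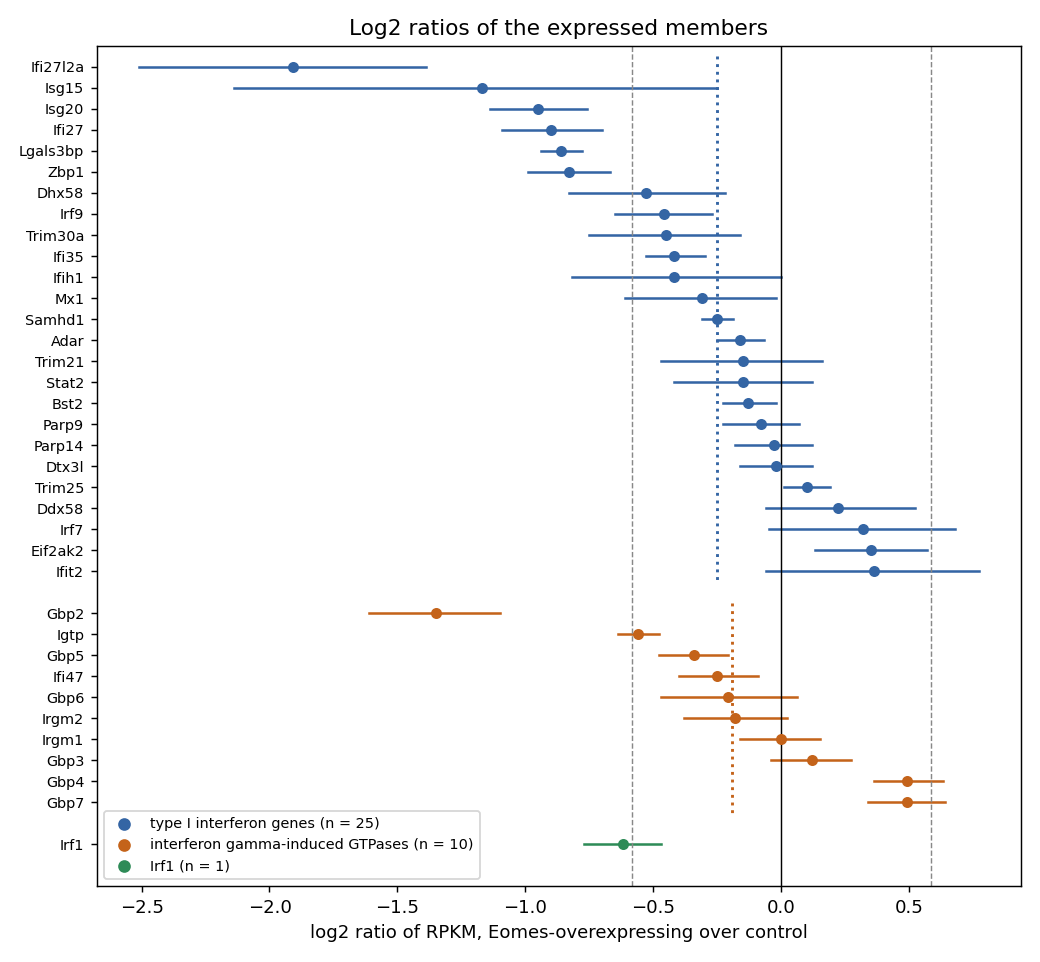
Log2 ratios of the 36 expressed members, as points with 95% counting intervals, for 25 type I interferon genes, 10 interferon gamma-induced GTPases and *Irf1*. Dashed lines mark 1.5-fold and dotted lines the list medians of -0.25 and -0.20, and both lists spread to either side of 0.

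The spread of log2 ratios narrows with abundance, so the members were also set beside genes of similar level. Among genes with a mean RPKM from 5 to 20, 4 of 17 members were lower, where 3.54% of the 3555 genes were. From 20 to 100, 3 of 6 members were lower, where 1.45% of 2889 genes were. In this range 95% of the log2 ratios lay between -0.46 and 0.40, and *Lgals3bp*, *Isg20* and *Ifi27* lay well below it. The GTPase gene *Igtp*, within 1.5-fold at -0.56, also lay below it. From 1 to 5, 1 of 11 members was lower, a share near the 11.5% of the 2414 genes there. At 100 or more, *Bst2* was the only member and was within 1.5-fold, and *Ifih1* had a mean under 1. The genes more than 1.5-fold lower were thus mostly of middle and high level.

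**Figure D3:**
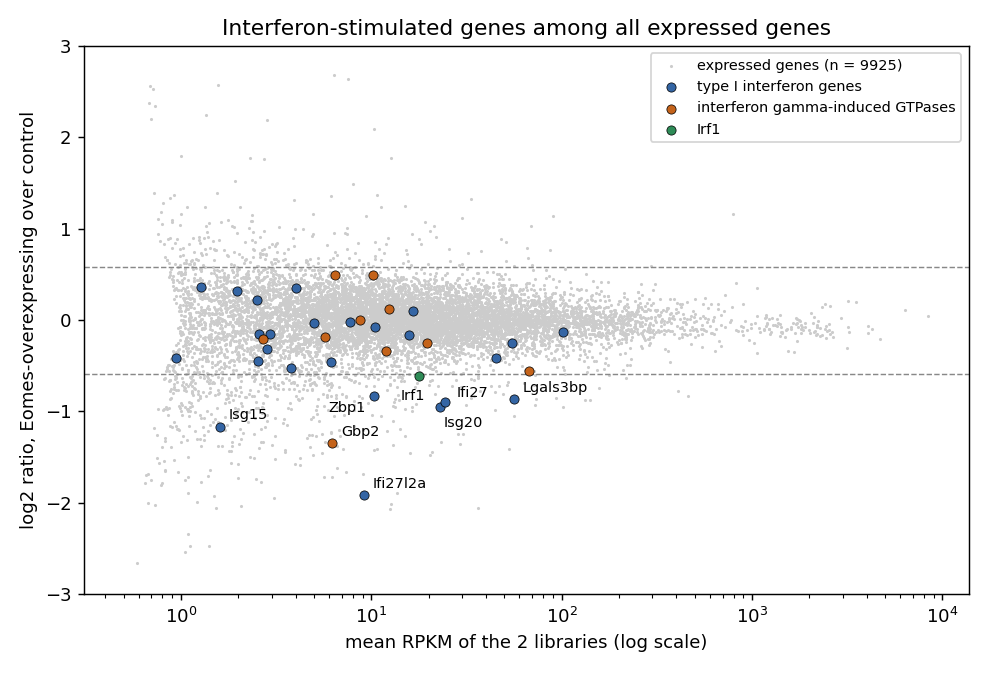
Log2 ratio against the mean RPKM of the 2 libraries (log axis) for 9925 expressed genes in grey, with the expressed members in colour and the 8 lower members named; dashed lines mark 1.5-fold, and 15 genes lie beyond the vertical axis. The grey cloud narrows to the right, and *Lgals3bp*, *Isg20* and *Ifi27* sit below it at an RPKM of 20 to 100.

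The ligand levels differed little. *Ifng*, which encodes interferon gamma, had an RPKM of 1342.70 in control cells against 1357.00 with overexpressed *Eomes* (log2 ratio 0.02), far above every interferon-stimulated gene examined. The type I ligand genes *Ifnb1*, *Ifna1*, *Ifna2*, *Ifna4* and *Ifna5* were not listed in either library, and *Ifnk*, another type I ligand gene, was listed only in Eomes-overexpressing cells, at 0.06 (about 1 read). Interferon protein was not measured here.

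Among the receptors, the interferon gamma receptor chain *Ifngr2* was lower. It had an RPKM of 1.14 in control cells against 0.63 with overexpressed *Eomes* (log2 ratio -0.86, interval -1.42 to -0.35), from about 88 and 46 reads. Of the 500 genes nearest in level, 15.6% had a lower ratio, so a difference of this size was common at such low levels. The ligand-binding chain *Ifngr1* was at 59.93 and 67.18 (0.16). Both chains of the type I receptor were near 0, with *Ifnar1* at 8.54 and 8.34 (-0.03) and *Ifnar2* at 12.71 and 12.63 (-0.01). The receptor-associated kinases were within 1.5-fold, with log2 ratios of 0.29 for *Jak1*, 0.18 for *Jak2* and -0.21 for *Tyk2*. *Socs1*, which inhibits JAK signalling and is itself induced, had an RPKM of 85.61 and 67.95 (-0.33). Of the 31 expressed pathway genes that are not members (ligands, receptors, kinases, transcription factors, regulators and adaptors), 1 was lower and 1 higher, near the 5.19% and 2.46% of all expressed genes, and their median was -0.05 (log2). The higher gene was *Mb21d1*, which encodes the DNA sensor cGAS, at 1.70 and 2.71 (0.67).

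The transcription factors among the members differed in direction. *Irf1*, the interferon gamma-induced factor, had an RPKM of 21.57 in control cells against 14.06 with overexpressed *Eomes* and fell just past the line, 1.53-fold lower (log2 ratio -0.62, interval -0.77 to -0.47). Its call rested on the scale: the log2 ratio was -0.53 after centring by GC content, inside 1.5-fold. *Irf9*, the DNA-binding subunit of ISGF3, was at 7.11 and 5.16 (-0.46, interval -0.65 to -0.27), and *Stat2*, its partner, at 2.69 and 2.43 (-0.15, interval -0.42 to 0.12). *Irf7*, which amplifies type I interferon transcription, was at 1.76 and 2.19 (0.32), with an interval from -0.05 to 0.68 that includes 0. Only *Irf1* of these 4 passed 1.5-fold.

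The nucleic acid sensors *Zbp1*, *Dhx58*, *Ifih1* and *Ddx58* had a median log2 ratio of -0.47. *Zbp1*, whose protein binds Z-form nucleic acids and can start cell death, fell from 13.22 to 7.43 RPKM (log2 ratio -0.83, interval -0.99 to -0.67), and only 1% of the 500 genes nearest in level had a lower ratio. *Dhx58*, which encodes LGP2, was just within 1.5-fold at 4.50 and 3.12 (-0.53, interval -0.83 to -0.22). The viral RNA helicase genes *Ifih1* (MDA5) and *Ddx58* (RIG-I) had log2 ratios of -0.42 and 0.22, each from at most 209 reads per library and with intervals that reach or span 0. *Zbp1* alone among the sensors passed 1.5-fold.

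The ISG15 pathway attaches a ubiquitin-like protein to other proteins. *Isg15* itself, usually among the strongest type I interferon targets, was low here, at an RPKM of 2.22 in control cells against 0.99 with overexpressed *Eomes*. It was 2.24-fold lower (log2 ratio -1.17), but from about 35 and 15 reads, and its interval ran from -2.14 to -0.25. *Ube2l6*, which encodes the conjugating enzyme of the pathway and is not a member, was at 4.26 and 2.02 (-1.08, interval -1.52 to -0.63) and was also lower. *Uba7*, which encodes the activating enzyme, had a log2 ratio of -0.25 and was within 1.5-fold. *Usp18*, whose protein removes ISG15 and restrains the type I receptor, was listed at 0.03 and 0.06, about 1 and 2 reads.

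Antiviral effectors spanned the widest range of levels. *Isg20*, which encodes an RNA exonuclease, fell from 30.41 to 15.76 RPKM (log2 ratio -0.95, interval -1.14 to -0.76), and 0.2% of the 500 nearest genes had a lower ratio. It was the only expressed effector past 1.5-fold. The most abundant effectors were *Bst2*, which encodes the virion tether tetherin, at 105.78 and 96.95 (-0.13), and *Samhd1*, which encodes a dNTP hydrolase, at 59.56 and 50.16 (-0.25, interval -0.31 to -0.19). Their intervals lay below 0, yet the differences were small. *Adar* (an RNA editing enzyme) and *Mx1* (a dynamin-like GTPase) had log2 ratios of -0.16 and -0.31. *Eif2ak2*, which encodes the kinase PKR, and *Ifit2*, an RNA-binding effector, were on the other side of 0, with 0.35 (interval 0.13 to 0.57) and 0.36 (interval -0.06 to 0.77).

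Several classical type I interferon targets were at or near the limit of detection in both libraries. *Ifit1* and *Oasl2* were listed at 0.02 in both, just inside the 0.01 limit of the files, and *Ifit3* at 0.08 and 0.09. *Oasl1* was listed only in Eomes-overexpressing cells (0.07) and *Rsad2*, which encodes viperin, only in control (0.04), so no ratio is given. *Rtp4* was listed at 0.10 and 0.03. Each of these rested on at most 4 reads, too few to show a difference. *Cmpk2*, a nucleotide kinase gene next to *Rsad2*, was at 0.61 and 0.22 (log2 ratio -1.47, interval -2.48 to -0.59), from about 41 and 14 reads, and *Xaf1* at 0.57 and 0.85 (0.58, interval -0.13 to 1.28). In all, 11 listed members were under an RPKM of 1 in both libraries, 9 type I genes and 2 GTPases, and they were left out of the counts above.

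The TRIM, PARP and DTX3L group differed little between the libraries. Its 6 genes, which encode ubiquitin ligases and ADP-ribose-transferring enzymes, were all expressed, 0 passed 1.5-fold, and their RPKM summed to 45.63 in control and 44.89 in Eomes-overexpressing cells. *Parp9*, *Parp14* and *Dtx3l*, neighbours on chromosome 16, had log2 ratios of -0.08, -0.03 and -0.02. *Trim25*, the ligase that acts on RIG-I, was at 0.10, *Trim21* at -0.15, and *Trim30a* was the lowest at -0.45 (interval -0.75 to -0.16).

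Among the other inducible proteins, 3 of 4 expressed genes were lower, where 5.19% of all expressed genes were. *Ifi27l2a* had an RPKM of 14.44 in control cells against 3.84 with overexpressed *Eomes*, 3.76-fold lower (log2 ratio -1.91, interval -2.51 to -1.39), and 0% of the 500 genes nearest in level had a lower ratio. Its neighbour *Ifi27* was at 31.92 and 17.14 (-0.90, interval -1.09 to -0.70). Both encode small hydrophobic proteins of the ISG12 family, and they lie side by side on chromosome 12 of mm10, *Ifi27* from 103434211 to 103440239 on the plus strand and *Ifi27l2a* from 103442167 to 103443680 on the minus strand. Their transcripts share almost no sequence, since 0.483% of the 50-base stretches of *Ifi27l2a* and 0% of those of *Ifi27* occur in another gene. *Lgals3bp*, which encodes a secreted galectin-3 ligand, fell from 72.38 to 39.85 (-0.86, interval -0.94 to -0.78), the most abundant of the lower members. *Ifi35*, a leucine zipper protein gene, was at 51.52 and 38.64 (-0.42, interval -0.53 to -0.30), within 1.5-fold, although 2.4% of the 500 nearest genes had a lower ratio. These 4 genes made up nearly all of the summed RPKM of their group, 170.9 in control and 100.4 in Eomes-overexpressing cells.

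Within the type I list, the members grouped here as an ISGF3 core were low in level. The grouping was chosen, and which members ISGF3 drives in these cells was not measured. The ISGF3 core of 17 genes had 9 expressed genes, 1 of them lower (*Isg15*), a median log2 ratio of -0.31 and, over all its listed genes, a summed RPKM of 26.83 in control cells against 21.88 with overexpressed *Eomes*. The other type I members had 16 expressed genes, 5 of them lower, a median of -0.20 and a sum of 445.6 and 334.9. The share of all expressed genes called lower was 5.19%, and the difference between the core and the rest was not tested. The genes of this core made up little of the summed type I RPKM, which depends on how the core was drawn. Of its 17 genes, 7 were at or under an RPKM of 0.1 in both libraries.

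Among the GTPases, *Gbp2* stood apart. It had an RPKM of 8.97 with the empty vector and 3.52 with *Eomes*, 2.55-fold lower (log2 ratio -1.35, interval -1.61 to -1.10), and 0.8% of the 500 nearest genes had a lower ratio. The guanylate-binding proteins (GBPs) assemble on the vacuoles of intracellular pathogens, and the other family members were within 1.5-fold. *Gbp4* was at 8.46 and 11.91 and *Gbp7* at 5.35 and 7.52, both with a log2 ratio of 0.49 and intervals above 0 (0.36 to 0.63 and 0.34 to 0.64). These were the highest ratios of any expressed member. *Gbp3* was at 11.90 and 12.91 (0.12, interval -0.04 to 0.27). *Gbp5*, which also promotes inflammasome assembly, was at 13.31 and 10.51 (-0.34, interval -0.48 to -0.21), and *Gbp6* at 2.91 and 2.52 (-0.21, interval -0.47 to 0.06). *Gbp9* was under an RPKM of 1, at 0.86 and 0.77. The 6 expressed GBPs thus split evenly, 3 below 0 and 3 above, with a median of -0.05, and all 7 listed GBPs summed to 51.76 in control and 49.66 in Eomes-overexpressing cells.

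The immunity-related GTPases (IRGs), which disrupt pathogen vacuoles or guard host membranes, were all at or below 0 and within 1.5-fold. *Igtp* was the most abundant GTPase and lay just within that line, at an RPKM of 79.79 in control cells against 54.24 with overexpressed *Eomes* (log2 ratio -0.56, interval -0.64 to -0.48), and 1.4% of the 500 nearest genes had a lower ratio. *Ifi47* was at 21.30 and 17.96 (-0.25, interval -0.40 to -0.09). The remaining regulators were closer to 0, *Irgm1* at 8.77 and 8.76 (-0.00, interval -0.16 to 0.15) and *Irgm2* at 6.05 and 5.33 (-0.18, interval -0.38 to 0.02). The effector *Iigp1* was listed at 0.19 in both libraries, about 12 reads each. *Igtp* alone made up most of the summed IRG level of 116.1 and 86.48.

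Neighbouring GTPases on chromosomes 3 and 5 had log2 ratios on both sides of 0, while those on chromosome 11 ran from -0.56 to -0.00. *Gbp5*, *Gbp7*, *Gbp3* and *Gbp2* follow one another on the plus strand of chromosome 3 of mm10 between 142493978 and 142638008, and their log2 ratios in that order were -0.34, 0.49, 0.12 and -1.35. *Gbp4*, *Gbp9* and *Gbp6* lie on the minus strand of chromosome 5 between 105077630 and 105293698, where the annotated *Gbp9* and *Gbp4* overlap. On chromosome 11, *Igtp* (58199556 to 58207591) lies within the annotated span of *Irgm2* (58199618 to 58222782) except for its first bases. Values of such genes are less certain, since the strand setting of the authors' counting is not given in the sources used here and copies share sequence. Other genes held 59.7% of the 50-base stretches of *Gbp6*, 12.8% of those of *Gbp4*, 12.8% of those of *Gbp7* and 12.3% of those of *Igtp*, but only 2.07% of those of *Gbp2*.

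**Figure D4:**
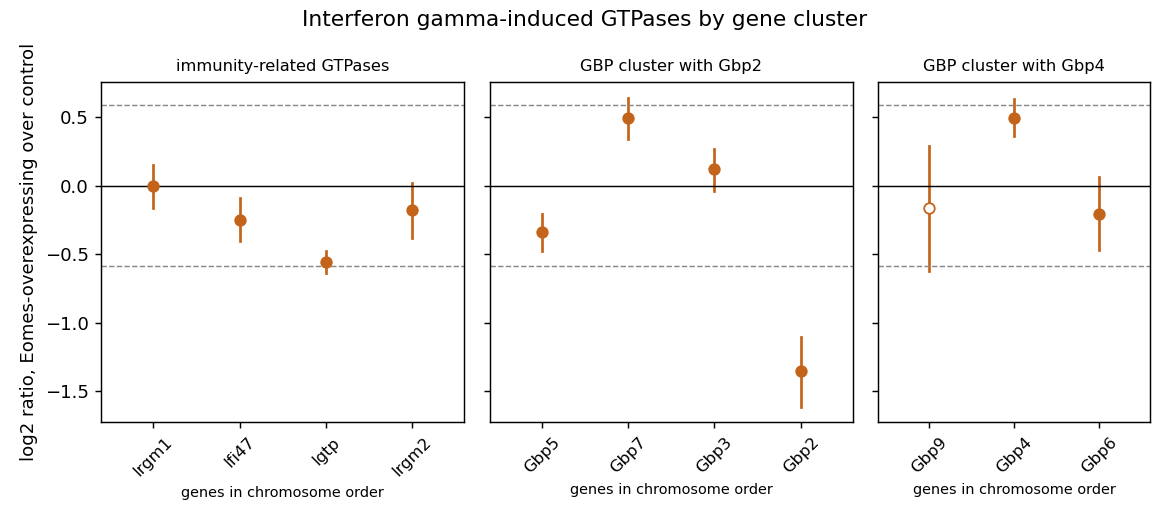
Log2 ratios with 95% counting intervals of the GTPases on chromosomes 11, 3 and 5, in chromosome order. Dashed lines mark 1.5-fold, and the open symbol is *Gbp9*, which was under an RPKM of 1. *Iigp1*, on chromosome 18, is not drawn. On chromosome 11, *Irgm1* and *Ifi47* lie far from *Igtp* and *Irgm2*, so that panel is not a single cluster. In the cluster with *Gbp2*, neighbouring genes lie on opposite sides of 0, from 0.49 for *Gbp7* to -1.35 for *Gbp2*.

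Set side by side, the type I genes and the GTPases had similar medians. The 25 expressed type I genes had a median log2 ratio of -0.25 (range -1.91 to 0.36), with 20 below 0 (80%) and 6 lower (24%). The 10 expressed GTPases had a median of -0.20 (range -1.35 to 0.49), with 7 below 0, 3 above and 1 lower (10%). Against these, all expressed genes had 50.5% below 0 and 5.19% lower. The medians differed by -0.05, which turned to 0.04 after centring by GC content, so the lists could not be placed in an order. Over all listed genes, the summed RPKM went from 472.4 to 356.7 for the type I genes (log2 ratio of the sums -0.41) and from 167.9 to 136.1 for the GTPases (-0.30). *Irf1* responds to both kinds of interferon, and with it among the GTPases 2 of that list were lower. A difference between the lists was not tested, since genes are not replicates.

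The promoters were searched because the members are induced through shared sequence elements. RefSeq promoter windows (GRCm38.p6, from 250 bases before to 50 after each start site) were found for 35 members, and none was used here for *Ifi27l2a*, *Ifi27*, *Zbp1*, *Dhx58*, *Usp18*, *Rtp4*, *Mx1*, *Parp9*, *Parp14*, *Gbp4*, *Gbp6*, *Gbp9* and *Iigp1*. An ISRE match was GAAA, any 2 bases and GAAA, on either strand. It occurred for 18 of the 35 members (51.4%), where 3.99% of all 27025 genes with a window had it. A GAS match was TTCNNNGAA, a palindrome, and occurred for 12 of 35 members (34.3%) against 9.55% of all genes. By list, 11 of 26 type I genes (42.3%) and 7 of 8 GTPases (87.5%) had an ISRE match, and 7 of 26 and 4 of 8 a GAS match. The T-box letters AGGTGTGA occurred in 0 of the 35 members and in 1.48% of all genes, a share too low for 0 of 35 to show a lack. A match is a run of letters and not a shown binding site.

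Matches did not sort the lower members from the rest. Of the 5 lower members with a window, *Isg15* and *Gbp2* had an ISRE match and *Irf1* and *Isg20* a GAS match, while 13 of 22 members within 1.5-fold had an ISRE match and 10 a GAS match. The windows below are shown so that genes of unlike response can be compared, with motif matches in capitals, read 5′ to 3′ on the strand of the gene from position -160 to position 10 around the start site (1 is the first transcribed base). *Isg15* (chr4:156200809-156200978, minus strand), 2.24-fold lower, has 3 overlapping ISRE matches that run together, and *Ifit1* (chr19:34640729-34640898, plus strand), at an RPKM of 0.02 in both libraries, has 2 that do not touch.
Isg15: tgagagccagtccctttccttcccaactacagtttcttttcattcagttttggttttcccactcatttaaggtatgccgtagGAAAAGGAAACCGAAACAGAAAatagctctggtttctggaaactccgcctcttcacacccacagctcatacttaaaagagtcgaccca
Ifit1: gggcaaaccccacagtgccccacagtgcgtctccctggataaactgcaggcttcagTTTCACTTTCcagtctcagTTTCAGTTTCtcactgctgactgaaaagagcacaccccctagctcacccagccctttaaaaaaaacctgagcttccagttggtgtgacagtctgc

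*Gbp2*, *Gbp3* and *Gbp7* are neighbours on the plus strand of chromosome 3 with log2 ratios of -1.35, 0.12 and 0.49, and each has an ISRE match close to its start. The windows are chr3:142620503-142620672 for *Gbp2*, chr3:142559884-142560053 for *Gbp3* and chr3:142530176-142530345 for *Gbp7*. The match of *Gbp2* begins at position -59 and the ISRE match of *Gbp7* at position -53, *Gbp3* has 2 overlapping ISRE matches, and *Gbp7* has 2 GAS matches as well, the shorter capital runs.
Gbp2: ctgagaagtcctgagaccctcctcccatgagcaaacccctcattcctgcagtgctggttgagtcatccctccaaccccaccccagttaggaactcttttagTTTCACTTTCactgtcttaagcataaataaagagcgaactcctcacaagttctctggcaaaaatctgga
Gbp3: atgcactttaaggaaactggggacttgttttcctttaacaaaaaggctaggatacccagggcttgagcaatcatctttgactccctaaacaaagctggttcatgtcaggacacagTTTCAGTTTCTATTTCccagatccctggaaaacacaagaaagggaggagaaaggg
Gbp7: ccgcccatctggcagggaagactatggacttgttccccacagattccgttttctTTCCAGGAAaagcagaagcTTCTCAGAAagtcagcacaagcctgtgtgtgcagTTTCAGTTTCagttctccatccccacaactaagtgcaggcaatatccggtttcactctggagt

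*Igtp* and *Irgm2* carry nearly the same promoter element but differed in level. In the 80-base windows chr11:58199481-58199560 (*Igtp*) and chr11:58214872-58214951 (*Irgm2*), both on the plus strand, 78 bases were identical. The RefSeq start of *Irgm2* used for this window lies downstream of the start of its GENCODE gene. The differences were T34C and T64C, with the base of *Igtp* first and positions counted from 1 at the 5′ end of the window. The first lies inside the GAS match, among its free bases, and the second after the ISRE match. *Igtp* was at an RPKM of 79.79 in control against 6.05 for *Irgm2*, and their log2 ratios were -0.56 and -0.18. *Irf1* (chr11:53769884-53769963, plus strand) is shown beside them, with its GAS match from position -90.
Igtp: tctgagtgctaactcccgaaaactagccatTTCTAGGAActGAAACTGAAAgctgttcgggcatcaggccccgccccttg
Irgm2: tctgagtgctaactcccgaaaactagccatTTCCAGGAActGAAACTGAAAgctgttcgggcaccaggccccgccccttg
Irf1: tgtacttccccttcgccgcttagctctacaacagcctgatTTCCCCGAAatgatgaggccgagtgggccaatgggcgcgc

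GC content moved with the log2 ratio in these libraries. Across the 36 expressed members Spearman's rho was -0.49, and across 9835 expressed genes -0.43, where genes of 1 pair of libraries share depth and preparation and are not independent. When the genes were cut into 10 groups by GC content, the group median went from 0.23 (up to 41.5% GC) down to -0.10 (from 57.8% GC). *Gbp4* (42.8% GC) and *Gbp7* (41.7%) are at the low end, and their log2 ratios of 0.49 were 0.35 and 0.30 after centring on genes of like GC content. *Isg20* (57.4%) and *Lgals3bp* (55.8%) are at the high end, and theirs were -0.85 and -0.77. After this centring *Gbp2* (46.8%) was at -1.40 and *Ifi27l2a* (52.9%) at -1.83. Then 9 members were lower in place of 8, without *Irf1* and with *Trim30a* (-0.66) and *Ifih1* (-0.60). The share of all expressed genes past 1.5-fold after centring was not computed. The median over the members was -0.28, the type I median -0.24 and the GTPase median -0.28.

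**Figure D5:**
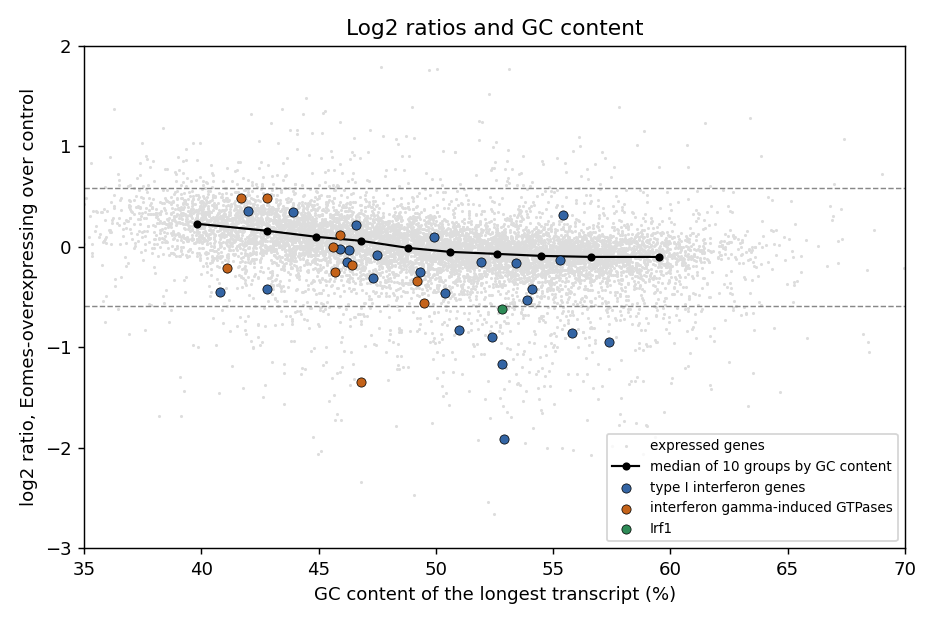
Log2 ratio against the GC content of the longest transcript (%) for expressed genes in grey, with the medians of 10 equal groups by GC content as a black line and the members in colour; 46 genes lie beyond the axes and dashed lines mark 1.5-fold. The line falls from 0.23 to -0.10, and the 8 lower members lie below it.

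Interferon-induced genes outside the members were also mostly within 1.5-fold. Of 57 expressed genes in the further lists, 8 were lower and 1 was higher, around a median of -0.20 (log2), where 5.19% of all expressed genes were lower and 2.46% higher. *Slfn2*, a Schlafen gene that maintains T cell quiescence, was at an RPKM of 43.17 in control cells against 23.85 with overexpressed *Eomes* (-0.86), and *Slfn1* at 1.46 and 0.46 (-1.67). The PHD finger genes *Phf11b* and *Phf11a* were at 17.09 and 8.94 (-0.93) and at 3.83 and 1.70 (-1.17). The nucleases and synthetases of nucleic acid defence included *Trex1*, at 17.05 and 10.30 (-0.73), and *Oas3*, at 4.87 and 3.03 (-0.68). *Ube2l6*, given above, and the IRG *Tgtp1* made up the 8, the latter at 6.64 and 2.78 (-1.26). Its related copy *Tgtp2* was at 4.89 and 3.36 (-0.54), also below 0. How reads were divided between the 2 genes was not tested. The higher gene was *Trim12a*, at 1.80 and 3.07 (0.77), which was 0.51 after centring by GC content.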

How the data were processed

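Total RNA of restimulated control and Eomes-overexpressing OT-I cells was sequenced on an Illumina HiSeq instrument, 1 library per condition. The authors filtered reads with SOAPnuke, mapped them to mm10 with HISAT and Bowtie2 and computed expression with RSEM (versions and strand setting not given in the sources used here). They deposited FPKM values with 2 decimals, listed from 0.01 upward, which their methods call RPKM. Some items are not reported here. Rows whose symbol had become a date were dropped (20 for control, 19 for Eomes).

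Log2 ratios were computed from the deposited values, with values not listed set to 0.01. Genes that reached an RPKM of 1 in either library counted as expressed, and 1.5-fold was the line. The study's methods used the same fold together with a limit on the false discovery rate, which was not applied here. With 1 library per condition no test was run. Depth was approximated from the steps between RPKM values from 0.05 to 1 of single-transcript genes of at least 500 bases. The step (RPKM times bases per read) was searched only from 40 to 60, which bounded the depth in advance. At the chosen step, 43% of 186 control values and 52.5% of 181 Eomes values lay within 0.15 of a whole read. An even spread gives 30%, but the step was picked for its fit, so 30% is a lenient reference. Reads and their intervals are therefore approximate. Positions, lengths, GC content and 50-base stretches came from GENCODE vM21, using the longest transcript. Where a gene was expressed as shorter transcripts, its reads are therefore overstated and its interval is too narrow. For GC centring, the median of the gene's bin (20 bins) was subtracted. Percentiles are among the 500 genes nearest in mean RPKM.

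The members and gene lists were chosen with earlier results of these data known. Values in both libraries were given for members past 1.5-fold, the 5 with the highest mean RPKM, *Irf1*, *Irf7*, *Irf9*, *Stat2*, the 12 GTPases, members next to the 1.5-fold line, chosen pathway genes and pathway genes past 1.5-fold. Other members named with values, among them those under an RPKM of 1, and *Uba7* were added after their values were seen. Alternatives were other minimum RPKMs, pseudocounts, folds, scalings and list memberships. The steps were tested on simulated data. Python 3.11.15, numpy 2.4.6, pandas 2.3.3, scipy 1.17.1 and matplotlib 3.10.9 were used.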

Additional observations from a re-analysis of the deposited data

How the results depend on the processing

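No paired analysis was possible because each condition had 1 library, and there were no replicates to leave out. With a 2-fold line, 3 members were lower in place of 8, and 2 type I genes in place of 6. Without a minimum RPKM, 11 members were lower in place of 8, and 9 type I genes in place of 6. At that setting 2 members were higher, the type I genes *Usp18* and *Oasl1*, each on at most about 3 reads per library. The type I median log2 ratio was then -0.16. Shares of all genes at these settings were not computed, so the counts show only how the calls move. With the ISGF3 core only, 1 type I gene was lower and the median was -0.31. With *Irf1* among the GTPases 2 of them were lower, and with the immunity-related GTPases alone 0.

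The interferon genes that are not members had 31 expressed pathway genes and 57 further expressed genes. Of these, 9 were lower and 2 higher, where 5.19% and 2.46% of all expressed genes were. Without a minimum RPKM the counts were 21 and 12, with a minimum of 5 they were 4 and 0, and with a 2-fold line 4 and 0. Shares of all genes at those other settings were not computed, so the counts show only how the calls move. A pseudocount of 1 and centring by GC content each left 0 higher, although *Mb21d1* had no GC value to centre on. The difference between the type I and GTPase medians, -0.05, was -0.20 with the guanylate-binding proteins alone, -0.12 with the ISGF3 core only, 0.02 without a minimum RPKM and 0.04 after centring by GC content. *Irf1* was inside 1.5-fold with a pseudocount of 1 and after centring by GC content, and the 7 other lower members were past it under each of 6 alternatives of scale and pseudocount. *Lgals3bp* was at -0.77 after centring by GC content. Leaving out 6 members that share sequence with other genes, a choice made after seeing the data, left 8 lower. The largest shift by scaling was -0.0319 (log2). Members under an RPKM of 1 rested on at most 90 reads.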
